A study of Homo sapiens with 10 samples.

Results

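Recovered survivors are OVCAR-3 cells that had lived through 1 of 2 stresses and had then grown for 2 weeks. OVCAR-3 is an established human ovarian adenocarcinoma cell line. Extracted cells had survived 3 days of immobilization in silica gel before 2 weeks of recovery in standard culture. Treated cells had met cisplatin, a DNA-crosslinking platinum compound, at 0.5 uM for 24 hours, and the cells that lived had likewise recovered for 2 weeks. Control cells were kept in standard culture, and their time in culture is not given in the sources used here, so that surviving a stress and time in culture cannot be told apart in any difference below. Extracted and Treated libraries, 4 of the 10 in the series, were pooled as survivors and set against the 2 Control libraries. The remaining 4 libraries are Day1 and Day3 cells, still in the gel after 24 hours and 3 days, and serve here only to estimate the spread. Each group has 2 biological replicates. All groups come from 1 line, so that the replicates stand for separate cultures and not for separate tumours.

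As background, a cell that meets a growth factor passes the signal through the MAP kinase cascade to immediate-early genes, among them FOS, FOSL1 and EGR1. FOS-family proteins pair with JUN-family proteins to form AP-1, a transcription factor that acts on genes for growth factors, proteases and adhesion proteins, while DUSP and Sprouty proteins damp the same cascade. Epithelial cells sit on a basement membrane of laminins and nidogens, which they grip through integrins and remodel with metalloproteinases and urokinase. WNT ligands, IGF-binding proteins and retinoid-binding proteins adjust how such cells respond to signals from their surroundings.

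Values are TPM, that is, transcript abundance per unit of gene length, expressed as parts of each library's sum. Fold changes are differences of log2(TPM + 1), survivors minus Control unless stated, with their standard error, and they understate the ratio for genes of low TPM. Adjusted p-values come from limma, two-sided, with the Benjamini-Hochberg adjustment over all 15167 genes that had at least 1 TPM in at least 2 libraries, and a gene was called at an adjusted p under 0.05. TPM hold no read counts, so that the depth of each library is unknown and no counting interval can be given.

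The libraries listed 13896 to 14173 genes at 1 TPM or more. The 13 mRNAs encoded by mitochondrial DNA took 11.1% and 10.6% of the TPM in Extracted cells and 10.8% and 10.4% in Treated cells, against 16.7% and 15.8% in Control cells. All 4 survivor libraries lay below both Control libraries. Genes of small RNAs, which standard mRNA libraries capture unevenly, took 14.7% of the TPM in Treated replicate 2 and 3.21% in Extracted replicate 1, and between 0.196% and 1.24% in each of the other 8 libraries. As TPM are shares, both measures move every other value in a library. Results after rescaling are therefore also given for the counts of calls, for mitochondrially encoded mRNAs and for ribosomal protein genes. For the other gene lists they are not given.

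**Figure D1:**
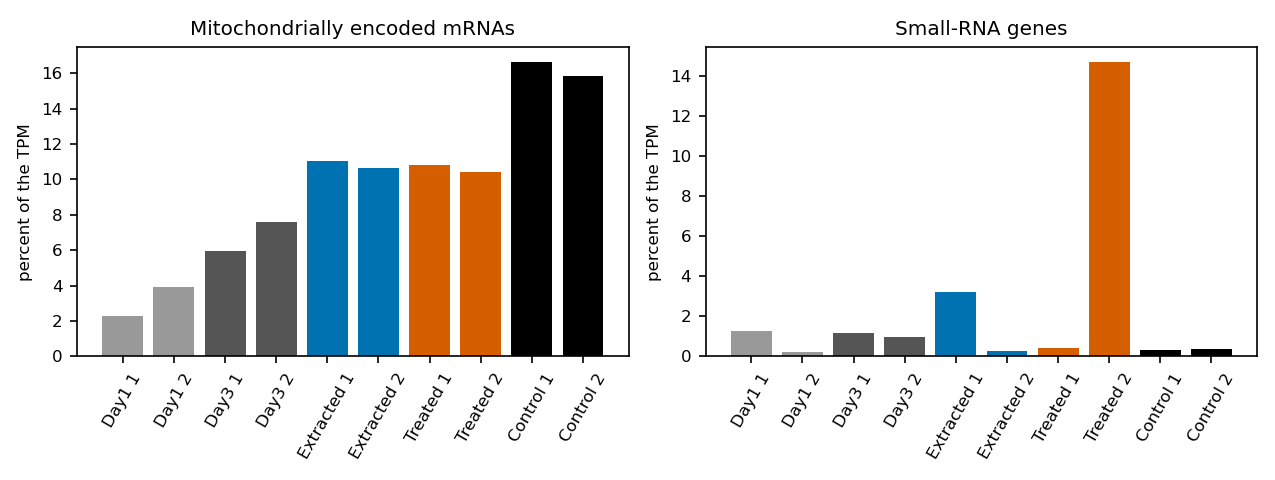
Share of each library's TPM, in percent, taken by the 13 mitochondrially encoded mRNAs (left) and by small-RNA genes (right), 1 bar per library. The 4 survivor libraries lie between 10.4% and 11.1% for mitochondrial mRNAs, below Control at 15.8% and 16.7%, and Treated replicate 2 stands apart for small-RNA genes at 14.7%.

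Ovarian carcinoma markers were expressed in every group. Of 16 ovarian carcinoma markers, 15 were tested, and their summed level was 2340 to 2610 TPM in survivors and 2320 to 2520 TPM in Control cells. WFDC2 took the largest part of that sum, which hides single markers. At an unadjusted p under 0.05 in limma, 4 were higher and 4 lower, beside 6.69% and 14.1% of all genes. In Treated cells alone, 5 were called higher and 3 lower, beside 6.28% and 18.2%. The pooled comparison called 6.67% of the tested markers, beside 2.85% of all genes. WT1, also a marker of this carcinoma, was lower in Treated than in Extracted cells (-1.35 on the log2 scale). Only ESR1, the oestrogen receptor, was below 1 TPM in every survivor and Control library. WFDC2, the serum marker HE4, stood at 606, 600, 639 and 610 TPM in the survivor libraries against 523 and 542 TPM in Control libraries. PAX8, the Mullerian lineage factor, was at 352, 333, 309 and 358 TPM in survivors against 416 and 500 TPM in Control cells (log2 difference -0.43 ± 0.12, adjusted p = 0.073), and EPCAM, an epithelial surface protein, at 310 to 453 TPM against 347 and 350 TPM. Of the marker list 1 gene was called, LYPD1, a surface protein anchored to the membrane by a lipid, with 55.7, 58.2, 36.4 and 31.1 TPM in survivors against 112 and 121 TPM in Control cells (log2 difference -1.39 ± 0.23, adjusted p = 0.0176, 0.149 without Control replicate 1 and 0.272 without Control replicate 2). MUC16, which carries the CA125 antigen, was at 57.2 and 61.3 TPM in Extracted, 104 and 112 TPM in Treated and 37.6 and 56.5 TPM in Control cells, and the pooled difference of 0.78 ± 0.27 missed the threshold (adjusted p = 0.137).

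Markers of cell types that a culture of this line should not hold were low. Called members below stand beside 2.85% of all tested genes called. Leukocyte markers summed to 4.7 to 8.81 TPM in survivors and 4.95 to 6.81 TPM in Control cells, with 2 of 11 tested, CD68 the highest, and TYROBP, CD3D and ITGAM listed at 0. Fibroblast markers summed to 7.53 to 15.9 TPM in survivors and 14.2 to 16 TPM in Control cells, with 3 of 10 tested and 1 called, POSTN, a secreted matrix protein, at 0.214 to 0.335 TPM against 1.39 and 1.24 TPM. Endothelial markers summed to 10.4 to 12.4 TPM in survivors and 11.2 to 11.3 TPM in Control cells, most of it from ERG. Neuronal markers summed to 49.1 to 97.1 TPM in survivors and 105 to 108 TPM in Control cells, led by the tubulin TUBB3, with 4 of 10 tested and 1 called, the microtubule protein MAP2, at 6.04 to 10.8 TPM against 14.3 and 16 TPM, while STMN2, NEFM and NEFL were listed at 0. POSTN and MAP2 were not called without either Control replicate, Treated replicate 1 or either Day3 replicate (adjusted p 0.0637 to 0.351). In bulk RNA, fewer cells that express a gene and less RNA per cell cannot be told apart.

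Survivors differed from Control cells in 432 of the 15167 tested genes (2.85%), of which 156 were higher (1.03%) and 276 lower (1.82%). In each of the 432, all 4 survivor libraries lay on the same side of both Control libraries; without asking for a call, this held for 5012 genes (33%). The called rises had a median log2 difference of 0.81, reaching 2.94 for AREG, and the called falls a median of -0.82, reaching -2.26 for TMPRSS15. At an unadjusted p under 0.05, 1015 genes (6.69%) were higher and 2133 (14.1%) lower, the shares against which unadjusted counts of gene lists are read below. At 2-fold or more, 125 genes were called (0.824%), 51 higher and 74 lower. Protein-coding genes made up 398 of the 432, and long non-coding RNA genes 26. Both populations each lay at least 1.5-fold from Control in 283 of the called genes, 103 higher and 180 lower, and at least 2-fold in 59, 27 higher and 32 lower.

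The balance of rises and falls followed the scaling. Rises made up 36.1% of calls in the deposited TPM, 49.2% after scaling by the median of ratios (404 higher and 417 lower), 47.7% without small-RNA genes (358 and 393) and 24% among rescaled nuclear protein-coding genes (292 and 925). The median log2 difference over all tested genes was -0.08 in the deposited TPM and between -0.10 and 0.00 after these rescalings. Of the 432 genes, 417, 426 and 394 were called under the same 3 scalings. The count rested on the 2 Control libraries: 7 genes were called without Control replicate 1 and 5 without Control replicate 2, where 1 library stands for the whole group. It was 182 without Treated replicate 1, 145 without either Day3 replicate, and between 313 and 586 without any other library.

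**Figure D2:**
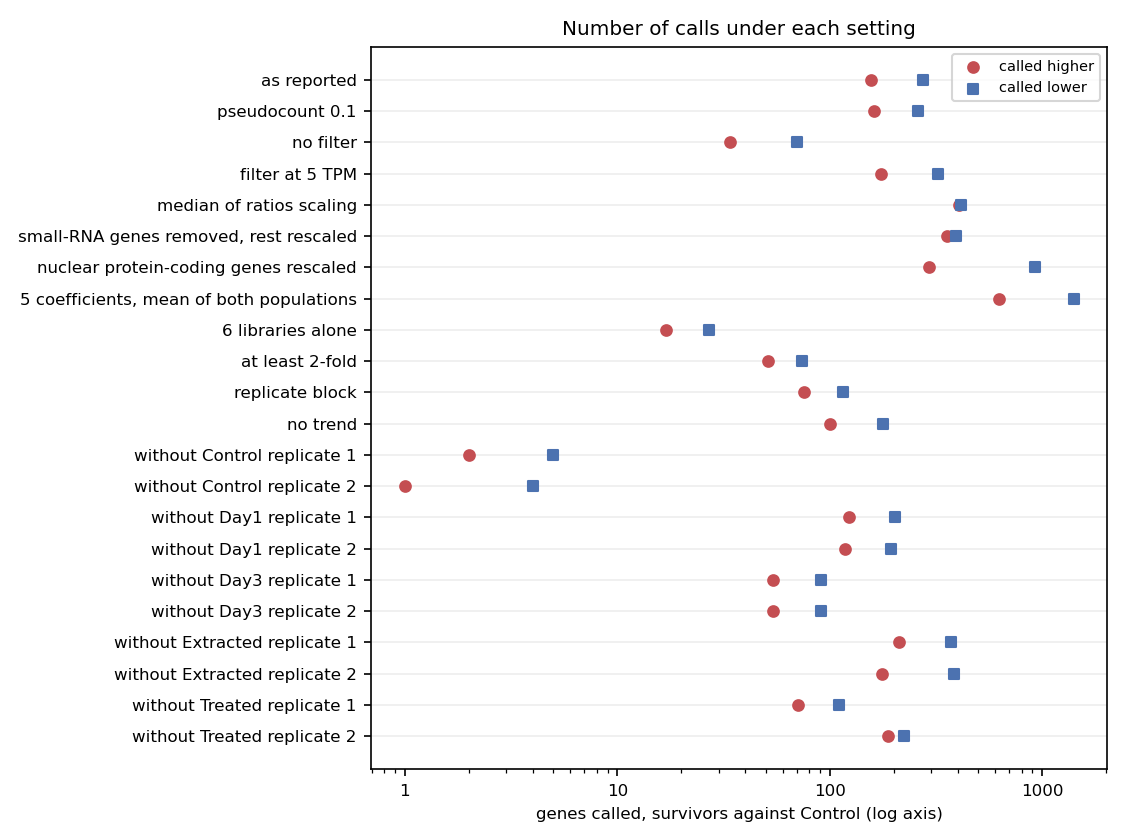
Number of genes called higher (circles) and lower (squares) in survivors than in Control (log axis) under each processing alternative and without each library in turn. The deposited TPM gave 156 higher and 276 lower, rescaled nuclear protein-coding genes 292 and 925, and the fits without 1 Control library 7 and 5 calls in all.

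Set against Control separately, Extracted cells differed in 302 genes (1.99%), 130 higher (0.857%) and 172 lower (1.13%). Treated cells differed in 3715 (24.5%), 953 higher (6.28%) and 2762 lower (18.2%). These comparisons share the 2 Control libraries, so that their calls are not independent of each other, and values of both populations are given side by side below. Treated and Extracted cells, compared directly, differed in 1836 genes (12.1%), of which 491 were higher in Treated cells (3.24%) and 1345 lower (8.87%). Rescaling moved these splits too. The share of rises among Treated calls was 25.7% in the deposited TPM and 51.1%, 42.7% and 30.4% under median-of-ratios scaling, without small-RNA genes, and among rescaled nuclear protein-coding genes. In the same order it was 43% and then 51.8%, 52.2% and 23.4% for Extracted calls, and 26.7% and then 54.1%, 42.1% and 46.7% for Treated against Extracted calls.

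**Figure D3:**
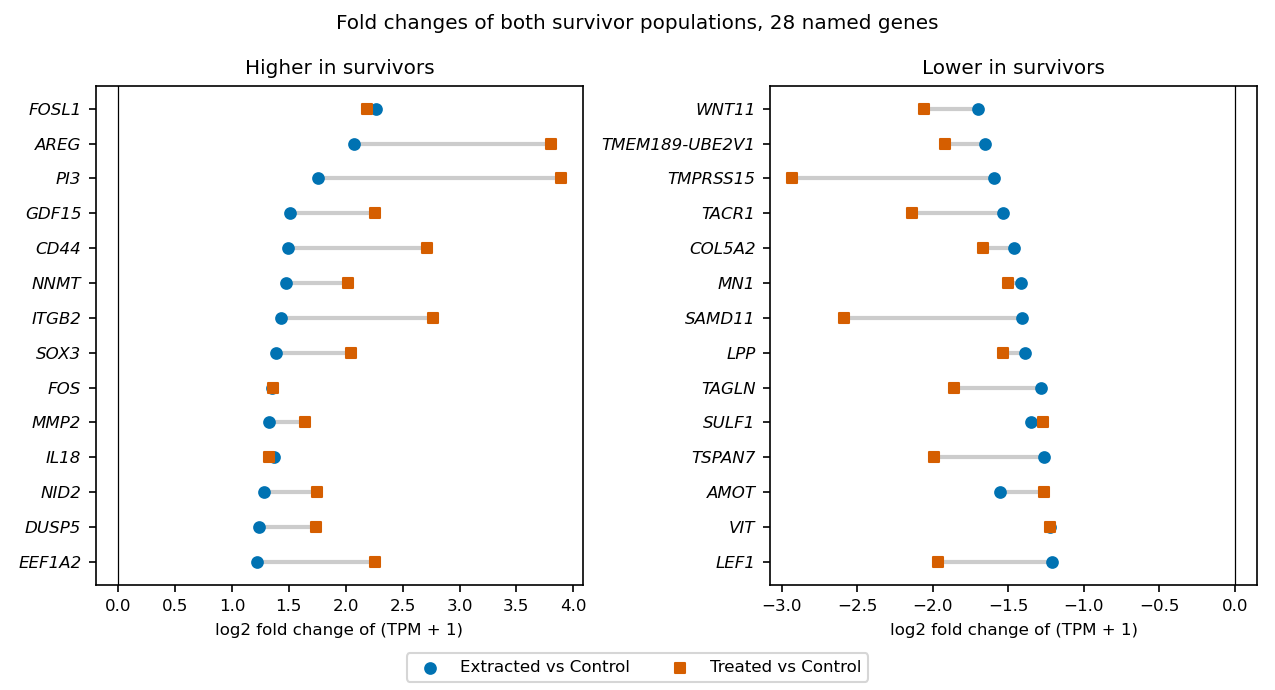
Log2(TPM + 1) differences from Control of Extracted and of Treated cells, 1 point each per gene, for the 14 called rises and the 14 called falls in which the smaller difference of both populations was largest. AREG lies at 2.07 in Extracted and 3.80 in Treated cells, FOSL1 at 2.27 and 2.19, and TMPRSS15 at -1.59 and -2.93; both populations share the Control libraries.

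In the AP-1, EGF-ligand and MAP kinase feedback lists 7 genes were called, all higher. FOSL1 (ENSG00000175592, chr11:65892049-65900573, GRCh38), which encodes the AP-1 subunit FRA1, was at 18.8 and 29.6 TPM in Extracted, 22.9 and 21.6 TPM in Treated and 4.14 and 4.08 TPM in Control cells. FOS, another AP-1 subunit, was at 27.2 and 21.7 TPM in Extracted, 25 and 24 TPM in Treated and 8.14 and 9.74 TPM in Control cells. EGR1, a zinc-finger immediate-early factor, was at 44.3 and 34.9 TPM in Extracted, 44.8 and 52.6 TPM in Treated and 18.9 and 19.4 TPM in Control cells. As in all 432 called genes, and in 33% of tested genes with or without a call, no survivor library overlapped Control. For these 3 genes Treated minus Extracted was -0.08, 0.01 and 0.30 on the log2 scale, none of it called. The pooled log2 difference was 2.23 ± 0.22 for FOSL1 (adjusted p = 0.00203), 1.36 ± 0.14 for FOS (adjusted p = 0.00212) and 1.15 ± 0.15 for EGR1 (adjusted p = 0.00823). They were the called members among 19 tested immediate-early genes (3 higher, 0 lower, 15.8% beside 2.85% of all genes). Of the 19, 8 were higher and 2 lower at an unadjusted p under 0.05 in limma, beside 6.69% and 14.1% of all genes. FOSL1 alone of the 3 was called without Control replicate 1 (adjusted p = 0.0477, the others up to 0.103) and FOS alone without Control replicate 2 (adjusted p = 0.0475, the others up to 0.188).

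AREG (ENSG00000109321, chr4:74445134-74455009, GRCh38) encodes amphiregulin, a membrane-bound ligand of the EGF receptor that is released by cleavage. It was at 22.5 and 30.3 TPM in Extracted, 102 and 77.3 TPM in Treated and 5.62 and 5.25 TPM in Control cells, the largest called rise (2.94 ± 0.49, adjusted p = 0.0176). Both populations lay above Control, and Treated lay above Extracted by 1.73 on the log2 scale (adjusted p = 0.00301). TGFA, another EGF receptor ligand, was at 15 to 18.8 TPM in survivors against 10.2 TPM in both Control libraries (0.63 ± 0.14, adjusted p = 0.0375). Among 11 tested genes of the EGF family and its receptors these were the calls, both higher (18.2%, beside 2.85% of all genes). DUSP5, a phosphatase that inactivates the MAP kinase ERK, was at 23.8, 27.7, 36.6 and 37 TPM in survivors against 10.2 and 10.4 TPM in Control cells (1.49 ± 0.18, adjusted p = 0.00633). SPRY1, a Sprouty inhibitor of receptor signalling, was at 18.1 to 27.9 TPM against 12.2 and 13.6 TPM (0.79 ± 0.17, adjusted p = 0.0375). They were the calls among 14 tested MAP kinase feedback genes (14.3%, beside 2.85% of all genes). Of the 14, 6 were higher and none lower at an unadjusted p under 0.05 in limma, beside 6.69% and 14.1% of all genes. None of AREG, TGFA, DUSP5 and SPRY1 was called without Control replicate 1 (adjusted p 0.0884 to 0.265) or replicate 2 (0.188 to 0.345). Of the 4, 2 were called without Treated replicate 1, 3 without Treated replicate 2 and 2 without either Day3 replicate, and TGFA was also lost without Extracted replicate 2 (adjusted p = 0.0502).

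**Figure D4:**
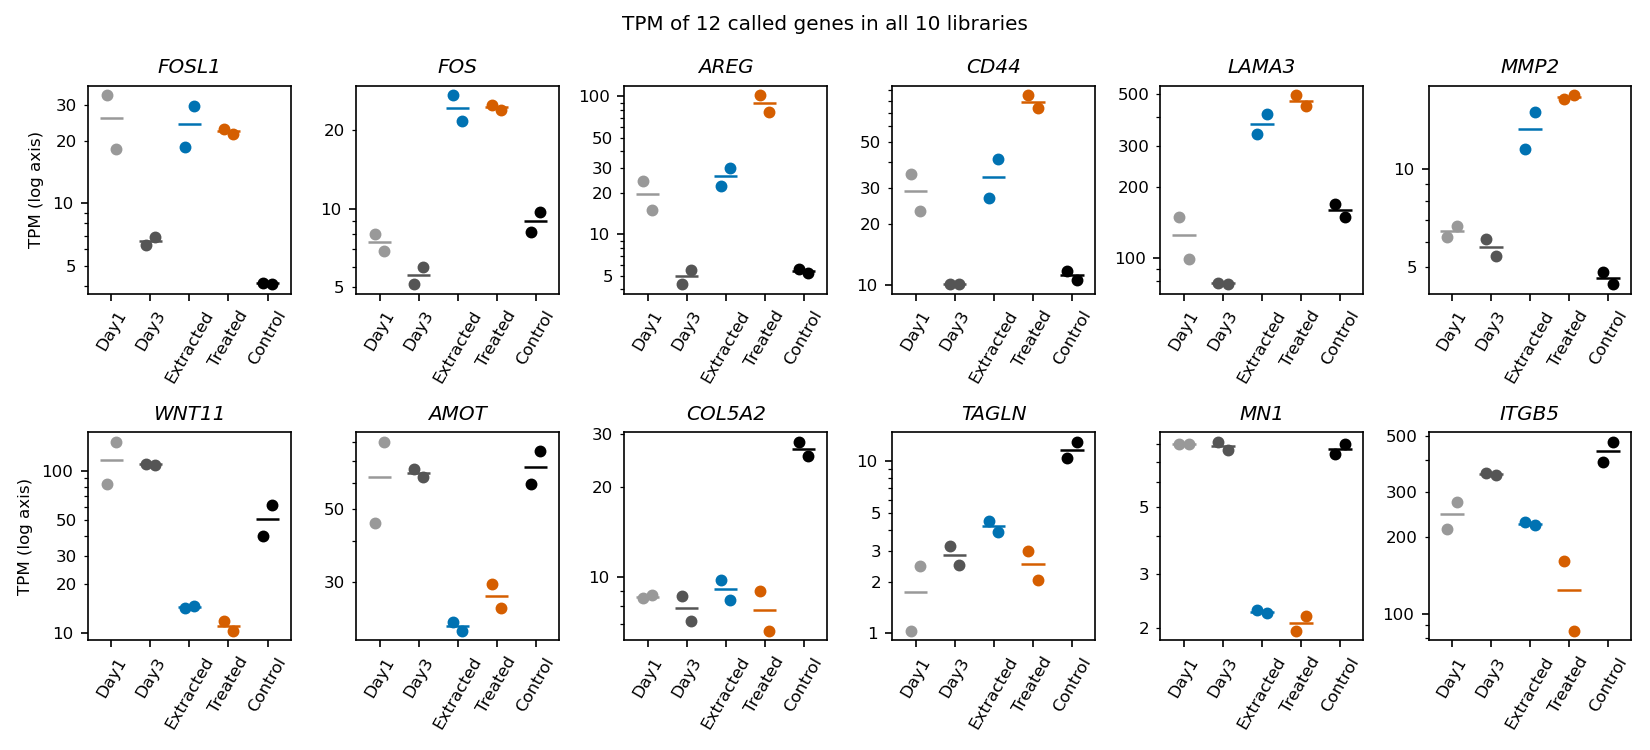
TPM on a log axis for 12 called genes in all 10 libraries, 1 point per library, with a bar at each group mean. As in all 432 called genes, the 6 rises (top) and 6 falls (bottom) separate all 4 survivor libraries from both Control libraries. FOSL1 lies between 18.8 and 29.6 TPM in survivors against 4.08 and 4.14 TPM in Control.

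Promoter windows of RefSeq (GRCh38.p14), 250 bases before to 50 after each listed start, were searched on both strands for 4 motifs, TGANTCA of AP-1, TGACGTCA of the cAMP response, CTTTGAT of LEF/TCF and GGAATG of TEAD factors, none of which lies within another, although neighbouring matches can share letters. Of 10520 tested genes with a window, 471 (4.48%) held the AP-1 motif, as did 10 of the 90 called rises with a window (11.1%) and 16 of the 200 called falls (8%). The cAMP-response motif was in 3.21% of all windows, 5.56% of those of called rises and 3% of those of called falls. The LEF/TCF motif was in 1.33% of all windows, 2.22% of those of called rises and 2.5% of those of called falls, and the TEAD motif in 10.8%, 13.3% and 11%. No test was made of these shares. A match is a description of the letters and not a binding site. Shown are windows of 3 called rises that hold a motif, AREG for its rise, the laminin gene LAMA3 for its 2 AP-1 matches, and the metallothionein gene MT2A; capitals mark the motif. AREG is shown at chr4:74444886-74445185, plus strand, with the cAMP-response motif starting 65 bases before the start (-65). LAMA3 is shown at chr18:23872770-23873069, plus strand, a start inside the annotated gene span, with its 2 AP-1 motifs upstream of that start. MT2A is shown at chr16:56608334-56608633, plus strand, with an AP-1 motif at -104.
AREG: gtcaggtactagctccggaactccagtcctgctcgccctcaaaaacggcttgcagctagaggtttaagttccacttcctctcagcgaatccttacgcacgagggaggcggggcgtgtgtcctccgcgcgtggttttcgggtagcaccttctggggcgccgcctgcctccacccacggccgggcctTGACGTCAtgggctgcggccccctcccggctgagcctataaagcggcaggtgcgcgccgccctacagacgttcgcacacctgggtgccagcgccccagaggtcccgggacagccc
LAMA3: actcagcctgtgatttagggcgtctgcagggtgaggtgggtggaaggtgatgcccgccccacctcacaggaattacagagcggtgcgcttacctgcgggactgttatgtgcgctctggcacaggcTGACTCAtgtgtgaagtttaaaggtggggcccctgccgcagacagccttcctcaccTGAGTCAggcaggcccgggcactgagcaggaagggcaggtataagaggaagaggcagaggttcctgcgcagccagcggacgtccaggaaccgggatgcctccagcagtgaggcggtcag
MT2A: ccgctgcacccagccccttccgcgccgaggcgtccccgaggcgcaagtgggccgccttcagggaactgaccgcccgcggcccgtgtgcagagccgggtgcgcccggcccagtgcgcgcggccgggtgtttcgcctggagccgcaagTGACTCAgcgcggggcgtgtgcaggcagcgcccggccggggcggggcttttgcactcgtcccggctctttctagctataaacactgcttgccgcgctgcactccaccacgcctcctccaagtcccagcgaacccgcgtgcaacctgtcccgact

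Of the secreted and inflammatory genes, 5 were called higher. PI3, which encodes the elastase inhibitor elafin, was at 25.2 and 39 TPM in Extracted, 139 and 143 TPM in Treated and 8.88 and 8.29 TPM in Control cells (2.82 ± 0.58, adjusted p = 0.033). SLPI, a related secreted protease inhibitor, was at 662 and 679 TPM in Extracted, 1360 and 1012 TPM in Treated and 388 and 413 TPM in Control cells (1.15 ± 0.24, adjusted p = 0.0342). In both genes the order was Treated, Extracted, Control with no overlap, and Treated lay above Extracted by 2.13 for PI3 (adjusted p = 0.000379) and 0.81 for SLPI (adjusted p = 0.00572). PI3 and SLPI were the calls among 11 tested secreted defence proteins (18.2%, beside 2.85% of all genes). The list's median difference from Control was 0.04 in Extracted and 2.19 in Treated cells. All 11 differed between Treated and Extracted, beside 12.1% of all genes. IL18, an inflammasome-dependent cytokine, showed no such order: it was at 108, 125, 141 and 90 TPM in survivors against 50.2 and 39 TPM in Control cells (1.35 ± 0.18, adjusted p = 0.00823). The neutrophil chemokine CXCL1 was at 89.3, 95.1, 174 and 163 TPM in survivors against 52.6 and 48.8 TPM in Control cells (adjusted p = 0.0374), and CXCL8, another such chemokine, at 18.5 to 29.9 TPM against 12.1 and 10.3 TPM (adjusted p = 0.0422). CXCL1 has close paralogs among which reads could be split, so that its value is uncertain. They were the 2 calls, both higher, among 17 tested NF-kB and cytokine genes (11.8%, beside 2.85% of all genes). None of these 5 called genes was called without Control replicate 1 (adjusted p 0.0627 to 0.233) or replicate 2 (0.212 to 0.382), and 2 were without Treated replicate 1, 2 without Treated replicate 2 and 1, IL18, without either Day3 replicate.

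GDF15, a stress cytokine and a p53 target, was at 7.74, 9.6, 14.7 and 15.5 TPM in survivors against 2.19 and 2.56 TPM in Control cells (1.89 ± 0.30, adjusted p = 0.0149). FAS, a death receptor that p53 also induces, was at 9.27 to 16.5 TPM in survivors against 5.39 and 4.7 TPM (1.14 ± 0.20, adjusted p = 0.0191). These 2 were the calls among 24 tested p53 targets (8.33%, beside 2.85% of all genes), whose median difference was -0.07. OVCAR-3 carries mutant p53. CDKN1A, the classic p53-induced cell-cycle inhibitor, was at 2.65 and 2.76 TPM in Extracted, 6.01 and 5.21 TPM in Treated and 3.45 and 5.69 TPM in Control cells, which overlap. Its pooled log2 difference was -0.14 ± 0.27 (adjusted p = 0.801 in limma). That difference changed sign, to 0.15, without Control replicate 2. The remaining large rises were in genes of other roles. NNMT, which methylates nicotinamide, was at 4.31, 5.27, 7.66 and 7.15 TPM in survivors against 1.14 and 1 TPM (1.75 ± 0.21, adjusted p = 0.00607). SOX3, a transcription factor of progenitor cells, was at 6.1, 6.89, 10 and 11.7 TPM against 2.22 and 1.55 TPM (1.72 ± 0.26). EEF1A2, a tissue-restricted elongation factor, was at 23.3, 23.3, 50.3 and 47.3 TPM against 9.67 and 9.15 TPM (1.74 ± 0.31). ADA, adenosine deaminase, was at 14.8, 18, 38.7 and 39.9 TPM against 9.11 and 7.14 TPM (1.54 ± 0.34). In all 4 genes, as in every called rise, each survivor library lay above both Control libraries, and the Treated pair lay highest. None of the 6 genes called here was called without Control replicate 1 (adjusted p 0.0743 to 0.204) or replicate 2 (0.188 to 0.382). ADA alone was also lost without either Day3 replicate, Treated replicate 1 (adjusted p = 0.0825) and Treated replicate 2 (adjusted p = 0.0572).

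Adhesion and matrix genes changed in both directions. LAMA3 (ENSG00000053747, chr18:23689443-23956222, GRCh38), the alpha chain of laminin 332 that anchors epithelial cells, was at 338 and 411 TPM in Extracted, 494 and 443 TPM in Treated and 171 and 149 TPM in Control cells (1.38 ± 0.18, adjusted p = 0.00675). ITGA3, a subunit of its integrin receptor, was at 159, 213, 195 and 210 TPM in survivors against 102 and 83.3 TPM in Control cells (1.05 ± 0.18, adjusted p = 0.0182). PLEC, the cytolinker plectin of hemidesmosomes, was at 41.5, 40.7, 54.4 and 42 TPM against 24 and 30.6 TPM (0.69 ± 0.15, adjusted p = 0.0386). The groups did not overlap in any of the 3, as in all 432 called genes. ITGB5, which pairs with the alpha V integrin to bind vitronectin, went the other way, with 228 and 223 TPM in Extracted, 161 and 85.7 TPM in Treated and 396 and 473 TPM in Control cells (-1.40 ± 0.32, adjusted p = 0.0422). Of 21 tested integrin, laminin and hemidesmosome genes, 3 were called higher and 1 lower (19%, beside 2.85% of all genes), and the median difference was 0.01. Outside that list, CD44, the hyaluronan receptor, was at 26.7 and 41.3 TPM in Extracted, 85 and 73.4 TPM in Treated and 11.7 and 10.6 TPM in Control cells (2.10 ± 0.37, adjusted p = 0.0187). ITGB2, the beta chain of leukocyte integrins, was at 4.63, 5.32, 14.8 and 13.5 TPM in survivors against 1.26 and 1.17 TPM (2.10 ± 0.38, adjusted p = 0.0216). Of 11 leukocyte markers, 8 were below 1 TPM in every survivor and Control library. CD68, the highest of them and not called, was at 3.28 and 2.45 TPM in Extracted, 6.21 and 7.46 TPM in Treated and 5.21 and 2.59 TPM in Control cells. None of these 6 called genes was called without Control replicate 1 (adjusted p 0.0743 to 0.316) or replicate 2 (0.191 to 0.382), and PLEC and ITGB5 were also lost without Treated replicate 1 or either Day3 replicate. Without 1 library in turn the PLEC difference ran between 0.52 and 0.86.

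Among the matrix genes, the gelatinase MMP2 was at 11.5, 15, 16.4 and 16.8 TPM in survivors against 4.82 and 4.44 TPM in Control cells (1.49 ± 0.16, adjusted p = 0.00295). Its inhibitors moved the same way, TIMP1 at 56.7 to 82.4 TPM against 44.8 and 42 TPM (adjusted p = 0.0431) and TIMP2 at 190 to 216 TPM against 143 and 130 TPM (adjusted p = 0.022). These were the calls among 20 tested matrix-remodelling genes (15%, beside 2.85% of all genes), whose median was 0.00. PLAU, the urokinase that activates plasminogen, was at 117, 139, 216 and 190 TPM against 74.8 and 57.4 TPM (1.28 ± 0.27, adjusted p = 0.0371). NID2, a nidogen of basement membranes, was at 39.3, 55, 70.4 and 59.2 TPM against 21.9 and 15.7 TPM (1.51 ± 0.25, adjusted p = 0.0176). COL5A2 (ENSG00000204262, chr2:189031896-189225312, GRCh38), a chain of type V collagen, was at 9.79, 8.42, 8.97 and 6.63 TPM in survivors against 28.3 and 25.4 TPM (-1.57 ± 0.15, adjusted p = 0.00203). SULF1, which removes sulfate from heparan sulfate chains, was at 3.31 to 4.57 TPM against 9.5 and 12.3 TPM (-1.31 ± 0.17), and VIT, a matrix protein, at 8.51 to 10.9 TPM against 23.4 and 24.2 TPM (-1.22 ± 0.21). Both were called and, like every called fall, lay wholly below Control. LOX, which crosslinks collagen, was at 0.744 to 1.53 TPM against 3.7 and 3.78 TPM (-1.19 ± 0.22). P4HA2, which hydroxylates collagen prolines, was at 12.4 to 16.3 TPM against 22.3 and 23.6 TPM (-0.65 ± 0.13). LOX and P4HA2 were the 2 calls, both lower, among 17 tested hypoxia-response genes (11.8%, beside 2.85% of all genes). Of these 10 genes none was called without Control replicate 1 (adjusted p 0.055 to 0.228), COL5A2 alone was without Control replicate 2 (adjusted p = 0.0475, the others up to 0.382), 7 were without Treated replicate 1, 8 without Treated replicate 2 and 6 without either Day3 replicate.

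The deepest falls covered a WNT ligand, receptors and cytoskeletal genes. WNT11 (ENSG00000085741, chr11:76186325-76210736, GRCh38), a ligand of mostly beta-catenin-independent WNT signalling, was at 14.4 and 14.7 TPM in Extracted, 11.9 and 10.4 TPM in Treated and 39.6 and 62 TPM in Control cells (-1.88 ± 0.24, adjusted p = 0.00675). LEF1, a transcription factor of the beta-catenin pathway, was at 3.37, 2.08, 1.01 and 1.36 TPM in survivors against 7 and 8.03 TPM in Control cells (-1.59 ± 0.28, adjusted p = 0.0187). DKK3, a secreted Dickkopf-family protein, was higher, at 41.4, 42.7, 51.7 and 50.5 TPM against 27.9 and 29.4 TPM (0.68 ± 0.13, adjusted p = 0.0233). These 3 were the calls among 18 tested WNT pathway genes (16.7%, beside 2.85% of all genes), whose median was -0.13. TMPRSS15 (ENSG00000154646, chr21:18269116-18485879, GRCh38), enteropeptidase, was at 14.6 and 11.8 TPM in Extracted, 4.63 and 4.52 TPM in Treated and 41.2 and 41.8 TPM in Control cells (-2.26 ± 0.37, adjusted p = 0.0166). SAMD11 was at 6.4 and 6.86 TPM in Extracted, 2.96 and 1.86 TPM in Treated and 15.7 and 23.6 TPM in Control cells (-2.00 ± 0.37). GJA1, the gap-junction protein connexin 43, was at 9.44 and 9.56 TPM in Extracted, 4.29 and 3.21 TPM in Treated and 20 and 20.5 TPM in Control cells (-1.59 ± 0.33). In these 3 genes Extracted cells stood between Treated and Control cells without overlap. WNT11 alone of the 6 was called without Control replicate 1 (adjusted p = 0.0396, the others up to 0.217), none was without Control replicate 2 (0.188 to 0.333), and 3 were without Treated replicate 1 and 4 without either Day3 replicate.

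MN1 (ENSG00000169184, chr22:27748277-27801498, GRCh38), a transcriptional coregulator, fell in both populations, to 2.29 and 2.24 TPM in Extracted and 1.96 and 2.19 TPM in Treated cells against 7.43 and 8.03 TPM in Control cells (-1.46 ± 0.13, adjusted p = 0.00145). AMOT, angiomotin, which binds the Hippo-pathway factor YAP, was at 22.8, 21.4, 29.6 and 25.2 TPM in survivors against 59.5 and 75 TPM (-1.41 ± 0.20, adjusted p = 0.0123). TAGLN, the actin-binding protein transgelin, was at 4.5, 3.9, 3.02 and 2.04 TPM against 10.5 and 13 TPM (-1.57 ± 0.26). It was the 1 call among 15 tested actin contractility genes (6.67%, beside 2.85% of all genes). LPP, a focal-adhesion LIM protein, was at 7.18, 12.2, 5.61 and 12.4 TPM against 27.5 and 25.2 TPM (-1.47 ± 0.30). Replicates of LPP differed by more than the means of both populations, and all 4 libraries lay below Control, as in every called fall. TACR1, the substance P receptor, was at 0.291 to 1.61 TPM against 4.77 and 5.34 TPM (-1.84 ± 0.32), and TSPAN7, a tetraspanin, at 0.767 to 2.75 TPM against 5.21 and 8.12 TPM (-1.63 ± 0.35). TMEM189-UBE2V1, a read-through gene that shares exons with both of its neighbours, was at 1.34, 4.05, 1.56 and 2.19 TPM against 8.57 and 11.2 TPM, and how reads were assigned among these genes is unknown. BMPR1B-AS1, an antisense RNA gene whose reads cannot be told from its partner's without strand, was at 9.99, 8.17, 4.25 and 4.4 TPM against 16.4 and 19.7 TPM. MN1 alone of these 8 genes was called without Control replicate 1 (adjusted p = 0.0304, the others up to 0.22) and without Control replicate 2 (adjusted p = 0.0475, the others up to 0.382), and 5 were called without Treated replicate 1 and 6 without Treated replicate 2 or either Day3 replicate.

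The IGF-binding protein genes IGFBP3, IGFBP5 and IGFBP7, 2 retinoid genes and a selenoprotein gene also fell. IGFBP3, the main circulating IGF-binding protein, was at 141, 148, 106 and 91.4 TPM in survivors against 254 and 245 TPM in Control cells (-1.06 ± 0.21, adjusted p = 0.0318). IGFBP5, a binding protein held in matrix, was at 2.51 to 3.06 TPM against 5.83 and 6.89 TPM (-0.95 ± 0.13, adjusted p = 0.00873), and IGFBP7, a low-affinity relative, at 4.84, 4.75, 7.74 and 7.96 TPM against 13.6 and 17.5 TPM (-1.20 ± 0.27, adjusted p = 0.0431). IRS2, an adaptor of the insulin and IGF receptors, was higher, at 28.9 to 34 TPM against 18 and 19.5 TPM (0.69 ± 0.12, adjusted p = 0.0176). Of 16 tested genes of the IGF system, 1 was thus called higher and 3 lower (25% called, beside 2.85% of all genes), and the list's median was -0.07. CRABP2, which carries retinoic acid to the nucleus, was at 165, 153, 150 and 127 TPM against 271 and 321 TPM (-0.99 ± 0.16), and RXRA, a retinoid X receptor, at 8.75 to 13.4 TPM against 17.9 and 23.4 TPM (-0.85 ± 0.19). They were the 2 calls, both lower, among 16 tested retinoid genes (12.5%, beside 2.85% of all genes). SELENOP, the secreted selenium carrier, was at 16.9, 13.9, 20.3 and 25.3 TPM against 40.3 and 55.2 TPM (-1.29 ± 0.26), whereas GPX4, the selenoprotein that reduces lipid peroxides, was at 445, 453, 570 and 534 TPM against 338 and 360 TPM (0.51 ± 0.12). Both passed the threshold, in opposite directions, among 11 tested selenoproteins (18.2%, beside 2.85% of all genes). None of these 8 called genes was called without Control replicate 1 (adjusted p 0.0753 to 0.306) or replicate 2 (0.232 to 0.413), 3 were without Treated replicate 1 or either Day3 replicate, and 6 without Treated replicate 2. IGFBP7 was also lost without either Extracted replicate. The RXRA difference ran between -1.03 and -0.66 without 1 library in turn.

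Single members of other lists fell as well. BMF, a BH3-only protein that promotes apoptosis on loss of attachment, was at 16.2, 16.9, 15.6 and 15.1 TPM in survivors against 34.6 and 44.5 TPM in Control cells (-1.25 ± 0.14, adjusted p = 0.00514). The 4 survivor libraries lay close together. FST, follistatin, which binds activin, was at 52 to 78.9 TPM against 122 and 131 TPM (-0.92 ± 0.16). HEY2, a NOTCH target, was at 1.16 to 2.08 TPM against 3.69 and 5.58 TPM (-1.11 ± 0.21), and CDH1, E-cadherin, at 62.6 to 67.6 TPM against 90.4 and 95.8 TPM (-0.50 ± 0.09). VIM, vimentin of mesenchymal cells, was at 1.91 to 2.42 TPM against 1.66 and 1.84 TPM (0.18 ± 0.16, adjusted p = 0.554). BMF alone of these 4 called genes was called without Control replicate 1 (adjusted p = 0.0396, the others up to 0.174), none was without Control replicate 2 (0.188 to 0.345), and 3 were without Treated replicate 1 and 2 without either Day3 replicate. The HEY2 difference ran between -1.35 and -0.86 without 1 library in turn.

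Of the 13 mitochondrially encoded mRNAs, 4 were called lower and none higher (30.8%, beside 1.82% of all genes called lower), with 10 lower and none higher at an unadjusted p under 0.05 in limma, where 14.1% of all genes were lower, and their median difference was -0.65. MT-ND2, a core subunit of respiratory complex I, was at 6104 and 5945 TPM in Extracted, 5182 and 4992 TPM in Treated and 9631 and 9726 TPM in Control cells (-0.81 ± 0.17, adjusted p = 0.0381). MT-ND5, another complex I subunit, was at 1434, 1298, 1263 and 1060 TPM in survivors against 2429 and 2525 TPM (-0.98 ± 0.21, adjusted p = 0.037). MT-ND6, encoded on the opposite strand, and MT-ATP8, whose frame overlaps that of its neighbour, were the other calls. The median was -0.56 after median-of-ratios scaling, with 2 members called, and -0.59 without small-RNA genes, with 4. None was called without either Control replicate, either Day3 replicate or Treated replicate 1, 1 was without Treated replicate 2, and 9 were without either Day1 replicate. Of 24 tested nuclear respiratory chain genes none was called (1 higher and none lower at an unadjusted p under 0.05 in limma, beside 6.69% and 14.1% of all genes), and their median was -0.10.

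Of 28 tested ribosomal protein genes, 5 were called higher and none lower (17.9%, beside 1.03% of all genes called higher), with 19 higher and none lower at an unadjusted p under 0.05 in limma, where 6.69% of all genes were higher, and the median was 0.28 (0.29 in both Extracted and Treated cells). RPL18, of the large subunit, was at 914, 929, 999.8 and 954 TPM in survivors against 652 and 659 TPM in Control cells (0.53 ± 0.09, adjusted p = 0.0186). RPS12, of the small subunit, was at 1609, 1666, 1424 and 1476 TPM against 1177 and 1146 TPM (0.41 ± 0.09, adjusted p = 0.0424). RPL13 and RPL30 were also called, with differences of 0.45 and 0.36. The differences were small and the replicates close. These genes have many processed pseudogenes, among which reads could be split. Under median-of-ratios scaling, without small-RNA genes, and among rescaled nuclear protein-coding genes 13, 17 and 12 members were called, all higher; none was called without either Control replicate, 1 without either Day3 replicate, 3 without either Day1 or either Extracted replicate, and 11 without Treated replicate 2.

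Several stress-protein genes were higher. MT2A, a metallothionein that binds zinc and copper, was at 115, 132, 158 and 146 TPM in survivors against 50.9 and 56.5 TPM in Control cells (1.33 ± 0.18, adjusted p = 0.00904), although its paralogs are close in sequence and its value is therefore uncertain. CRYAB, a small heat-shock protein, was at 264, 339, 419 and 387 TPM against 185 and 134 TPM (1.14 ± 0.18, adjusted p = 0.0158 in limma). It was the 1 call among 14 tested chaperones (7.14%, beside 2.85% of all genes). FTH1, the ferritin heavy chain with many pseudogenes, was at 12576, 13054, 18488 and 16091 TPM against 8559 and 9085 TPM (0.75 ± 0.14, adjusted p = 0.025). In all 3 genes Extracted lay between Treated and Control cells. CDKN1C, the cell-cycle inhibitor p57, was at 24.2, 22.5, 26.7 and 29.2 TPM against 13.9 and 16 TPM (0.74 ± 0.13). It was the 1 call among 13 tested CDK inhibitors and G1 cyclins (7.69%, beside 2.85% of all genes). AXL, a receptor tyrosine kinase, was at 2.55, 3.05, 5.89 and 5.78 TPM against 1.28 and 1.34 TPM (1.14 ± 0.27), and CTGF, a matricellular protein, at 117 to 150 TPM against 95.1 and 93.1 TPM (0.48 ± 0.11). They were the 2 calls among 14 tested YAP targets (14.3%, beside 2.85% of all genes), whose median was -0.13. SOX9, a progenitor-cell transcription factor, was at 7.81 to 9.77 TPM against 4.72 and 4.62 TPM (0.77 ± 0.15). DDIT4, a stress-induced inhibitor of mTOR signalling, was at 31.3 to 45.5 TPM against 21.3 and 20.2 TPM (0.77 ± 0.17), and PFKP, a phosphofructokinase, at 15.4 to 23.6 TPM against 10.9 and 9.19 TPM (0.80 ± 0.17). KRT23, a keratin, at 74.8 to 100 TPM against 42.8 and 42.5 TPM, and S100A16, a calcium-binding protein, at 182 to 307 TPM against 121 and 119 TPM, were likewise called. Of these 11 genes none was called without Control replicate 1 (adjusted p 0.0772 to 0.267) or replicate 2 (0.188 to 0.383), and 6 were without Treated replicate 1, 9 without Treated replicate 2 and 4 without either Day3 replicate. CTGF was also lost without either Extracted replicate. The CRYAB difference ran between 0.91 and 1.37 without 1 library in turn.

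Proliferation, repair and drug-handling genes gave no shared call. None of 25 tested mitosis genes was called by limma in the pooled comparison (3 lower and none higher at an unadjusted p under 0.05, beside 14.1% and 6.69% of all genes). Their median difference from Control was -0.03 in Extracted and -0.52 in Treated cells. Of the 25, 15 differed between Treated and Extracted, beside 12.1% of all genes. CCNB1, cyclin B1, was at 212 and 218 TPM in Extracted, 153 and 123 TPM in Treated and 201 and 194 TPM in Control cells. MKI67, the proliferation antigen Ki-67, was at 54.4, 59, 49.2 and 42.5 TPM in survivors against 62.1 and 67.9 TPM (-0.35 ± 0.17, adjusted p = 0.286). The Treated pair stood lowest in both. Of 25 DNA replication genes none was called, with 12 lower and none higher at an unadjusted p under 0.05 in limma, beside 14.1% and 6.69% of all genes (median -0.30). Of 29 genes that repair platinum damage none was called either, with 6 lower and none higher on the same basis, to be read against the same shares (median -0.22). Of 12 genes for copper, platinum and glutathione handling none was called, with 1 lower and none higher unadjusted, again beside 14.1% and 6.69%. SLC31A1, the copper importer that can carry cisplatin, was at 12.1 and 12.2 TPM in Extracted, 8.23 and 8.13 TPM in Treated and 13.6 and 13 TPM in Control cells (-0.38 ± 0.18, adjusted p = 0.253). Of 8 drug efflux pumps none was called or passed an unadjusted p of 0.05 in limma. ABCC1, the pump MRP1, was at 23.4 to 26 TPM against 23.2 and 24.2 TPM, and ABCB1 did not pass the filter on low values. In Treated cells alone, 17 of the mitosis, 15 of the replication, 10 of the repair, 3 of the handling and 2 of the efflux genes were called lower against Control. None of these was called higher, beside 18.2% of all genes lower and 6.28% higher, and Extracted cells alone had no call in these lists.

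Interferon-stimulated genes were called higher against Control for 18 of 20 tested members in Treated cells, beside 6.28% of all genes. In Extracted cells 1 was called higher, beside 0.857% of all genes. None was called in the pooled comparison (9 higher and none lower at an unadjusted p under 0.05 in limma, beside 6.69% and 14.1% of all genes), although the pooled median was 0.75. The median was 0.00 in Extracted and 1.54 in Treated cells. In the direct comparison 16 of the 20 differed between Treated and Extracted, beside 12.1% of all genes. Likewise, 10 of 11 tested S100 genes differed between Treated and Extracted, beside the same 12.1%. In the pooled comparison 1 was called (9.09%, beside 2.85% of all genes).

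**Figure D5:**
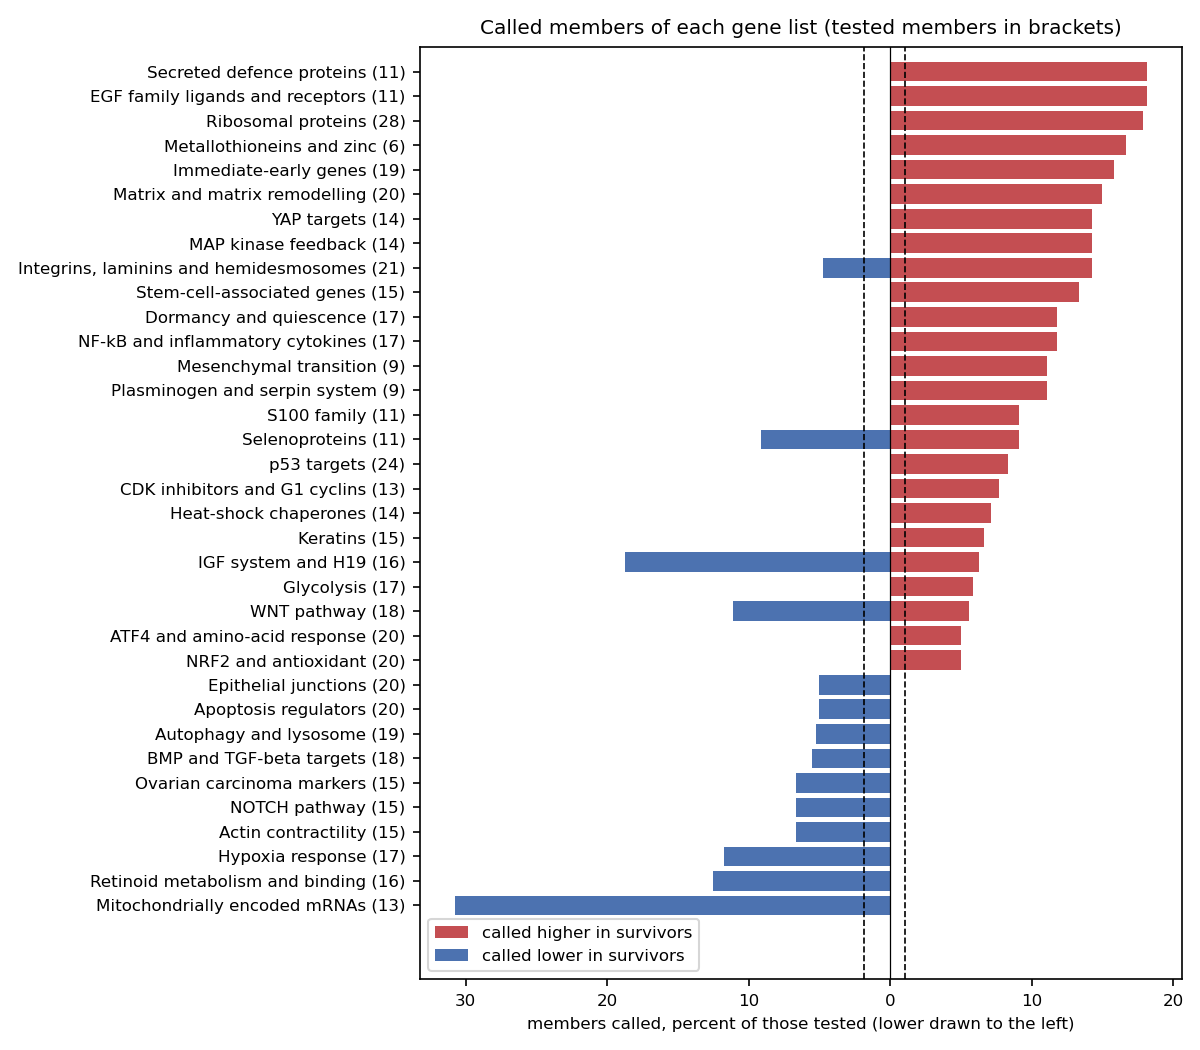
Called members of each gene list as a percent of its tested members, higher to the right and lower to the left, with the number tested in brackets; dashed lines mark the share over all tested genes, 1.03% higher and 1.82% lower. Lists without a called member and the lists of other cell types are not drawn. Mitochondrially encoded mRNAs reach 30.8% lower, and secreted defence proteins and EGF family genes 18.2% higher.

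Some of the called genes differed from Control by unequal amounts in both populations. Of the 432, 76 (17.6%) also differed between Treated and Extracted cells, against 12.1% of all tested genes, and in all 76 Treated cells were further from Control. The same survivor libraries gave the calls and this comparison, so that these shares are not independent. Treated cells also had more calls against Control, 3715 beside 302 in Extracted cells, so that this direction was the likelier one beforehand. At an unadjusted p under 0.05 in limma, Treated cells were further from Control in 160 and Extracted cells in 7. After median-of-ratios scaling 117 of 821 called genes differed between both populations, Treated further in 116, and without small-RNA genes 111 of 751 did, Treated further in 110. The count of 76 fell to 29 (Treated further in 28) and 27 without Treated replicate 1 or 2, to 42 and 37 without Extracted replicate 1 or 2, to 15 without either Day3 replicate, and to 0 without either Control replicate, also at an unadjusted p under 0.05 in limma, where 7 and 5 genes were called in all. Beside AREG and PI3, the rises with the largest gap were ITGB2 (Treated minus Extracted 1.34), CD44 (1.23) and ADA (1.22). The falls with the largest gap were TMPRSS15 (-1.34), SAMD11 (-1.18), GJA1 (-1.16), ITGB5 (-0.93) and BMPR1B-AS1 (-0.92).

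Genes with both populations called against Control in opposite directions were sought among those reaching 5 TPM in a group mean. Clone-named, pseudogene and small-RNA genes were left out, and a call between Treated and Extracted cells was required. This gave 3 genes. PLAT, tissue plasminogen activator, was at 6.88 and 7.12 TPM in Extracted, 23 and 19.8 TPM in Treated and 10.9 and 11.8 TPM in Control cells, a log2 difference of -0.63 in Extracted (adjusted p = 0.032) and 0.86 in Treated cells (adjusted p = 0.00118). MMP10, the protease stromelysin 2, was at 3.46 and 3.52 TPM in Extracted, 11.9 and 11.1 TPM in Treated and 5.88 and 5.9 TPM in Control cells (-0.62 and 0.86). MUC1, a membrane mucin, was at 24 and 22 TPM in Extracted, 56.4 and 65.3 TPM in Treated and 34.4 and 41 TPM in Control cells (-0.69 and 0.68). In each the Control pair lay between both survivor populations without overlap.

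Calls were spread over the genome and over expression levels. Beside 1.82% of all tested genes, the share called lower was 3.77% on chromosome 6 (29 of 770) and 26.7% in the mitochondrial genome (4 of 15). Beside 1.03% of all, the share called higher was 3.76% on chromosome 21 (7 of 186), 2.7% on chromosome 18 (6 of 222) and 2.62% on chromosome 11 (22 of 840). These are the highest shares, picked after they were seen. By mean TPM over the libraries, 0.635% of genes under 1 TPM were called, 2.85% of those at 5 to 20 TPM and 5.17% of those over 100 TPM. The share called thus grew with the level.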

How the data were processed

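RNA of 10 OVCAR-3 cultures was sequenced after column extraction of total RNA and standard Illumina library preparation, per the labels' protocols. The deposited table holds gene-level TPM, which the authors computed with Trimmomatic, STAR and Cufflinks on GRCh38, per the submitters' processing notes. Neither versions nor annotation release nor strand setting is given in the sources used here. The table held 349 blank lines and 58313 entries, 91 of which repeated an Ensembl identifier and were summed, leaving 58222 genes, 99.55% of them in GENCODE 29, which gave biotypes and GRCh38 positions. Depth is unknown.

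The filter kept genes that reached 1 TPM in 2 or more libraries. They were fitted in R 4.3.3 by limma 3.58.1, on log2 of TPM with a pseudocount of 1 and a mean-variance trend, over all 10 libraries. Extracted and Treated formed 1 group of 4 (6 residual degrees of freedom); separate comparisons came from a fit with 1 coefficient per group (5 residual degrees of freedom). On simulated data with 200 of 15167 genes changed, the survivor comparison recovered 86% of 2-fold changes with 5 false calls and 43.5% of 1.5-fold changes with 8. These rates describe the simulated data and cannot be carried over to the real libraries, where the count rested on the Control libraries.

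Members and gene lists were chosen with earlier results of these data known. Genes were named by rule: the 14 rises and 14 falls called, reaching 5 TPM in a group mean, that ranked first by the smaller difference of both populations; the 3 most changed called members, or the 2 most abundant, of lists with at least 1 in 4 members called and of fixed marker lists; the 5 per direction most unequal between both populations; genes of opposite direction; and a fixed set of 8 genes. The other called list members were named after their values were seen. Alternatives were a pseudocount of 0.1, other filters, 3 rescalings, other fits, a 2-fold minimum, a block for the replicate number, and fits lacking 1 library each. Promoter windows are from RefSeq GRCh38.p14. Tables and plots used Matplotlib 3.10.9, NumPy 2.4.6 and pandas 2.3.3 in Python 3.11.15. Some called genes are not reported here. Reads, isoforms and variants were not analysed here.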

Additional observations from a re-analysis of the deposited data

Results flagged for a closer look

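Genes named above whose difference from Control was unequal in both populations are given here by the log2 difference of Treated minus Extracted cells, each past an adjusted p of 0.05 in limma. Called rises that were larger in Treated cells were PI3 (2.13), AREG (1.73), ITGB2 (1.34), CD44 (1.23), ADA (1.22), EEF1A2 (1.04), CXCL1 (0.86), AXL (0.85), SLPI (0.81), S100A16 (0.70), CASP1 (0.68), LGALS1 (0.59), DUSP5 (0.51), FTH1 (0.43) and TIMP1 (0.41). Called falls that were larger in Treated cells were TMPRSS15 (-1.34), SAMD11 (-1.18), GJA1 (-1.16), ITGB5 (-0.93), BMPR1B-AS1 (-0.92), LYPD1 (-0.74) and AKT2 (-0.53). Genes not called in the pooled comparison also differed between both populations. Higher in Treated than in Extracted cells were MMP10 (1.48), PLAT (1.48), MUC1 (1.36), MUC16 (0.85), CDKN1A (0.83), MSLN (0.58), which encodes mesothelin, the transporter gene ABCA2 (0.58) and KRT18 (0.51), a simple-epithelium keratin. Lower in Treated than in Extracted cells were WT1 (-1.35), a transcription factor that marks serous ovarian carcinoma, CCNB1 (-0.64), SLC31A1 (-0.52) and UBE2C (-0.40), a ubiquitin-conjugating enzyme of mitosis. WT1 was at 39.8 and 36.4 TPM in Extracted, 15.3 and 13.4 TPM in Treated and 46.3 and 52.8 TPM in Control cells.

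Within the 4 survivor libraries, a single library stood apart for 1 of 136 values checked, where chance flags about 1 in 20. For PLEC the gap of Treated replicate 1, at 54.4 TPM, to the nearest library made up 0.888 of the whole range.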

How the results depend on the processing

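All 432 genes called in survivors had all 4 survivor libraries on 1 side of Control, as had 33% of tested genes with or without a call. The count of 432 became 104 without a filter on low values, 821 after median-of-ratios scaling, 751 without small-RNA genes and 1217 among rescaled nuclear protein-coding genes. As the mean of both populations in the fit with 1 coefficient per group it was 2030 (1897 with all 4 libraries on 1 side). It became 44 in a fit of the 6 survivor and Control libraries alone, 125 with a 2-fold minimum, 191 with the replicate block and 279 without the mean-variance trend. It was 421 with a pseudocount of 0.1 and 498 with a filter at 5 TPM. Without 1 library it ran between 5 and 586. All 432 genes were called in the fit with 1 coefficient per group, 41 in that of the survivor and Control libraries alone and 189 with the block; 2 genes, MN1 and an unnamed locus, were called in every fit without 1 library. The 302 Extracted calls became 99 without a filter, 639 after median-of-ratios scaling, 636 without small-RNA genes, 1032 among nuclear protein-coding genes, 68 with a 2-fold minimum and 161 without the trend, and ran between 2 and 654 without 1 library. The 3715 Treated calls became 562 with a 2-fold minimum and ran between 1315 and 4183, and the 1836 Treated against Extracted calls became 1018 without a filter and 212 with a 2-fold minimum and ran between 166 and 3143. Where a library was left out, the lone library of its group was assumed to vary like the other groups. The causes of these changes were not tested, except that the smaller fits have fewer libraries. Replicate numbers did not pair the samples, since the replicate differences of 2 groups correlated at 0.0874 at most across genes; with the replicate block, 243 Extracted, 3713 Treated and 1775 Treated against Extracted genes were called, and 22 survivor calls also differed between Treated and Extracted. That count of 76 was 31 without the trend, 1 without a filter, 39 with a 2-fold minimum, 232 among nuclear protein-coding genes and 569 in the fit with 1 coefficient per group. No called gene that is named reversed its direction under any alternative, whereas 8 named genes that were not called changed sign under at least 1 alternative, among them CDKN1A and MUC1. Of the 106 called genes named, 104 were called at a pseudocount of 0.1, 103 after median-of-ratios scaling and 106 without small-RNA genes, but 28 without a filter, 29 in the fit of survivors and Control alone, 4 without Control replicate 1 and 3 without Control replicate 2. Called counts of gene lists moved too, by more than 1.5-fold or to or from none. This held for 14 lists after median-of-ratios scaling, 14 without small-RNA genes and 28 among rescaled nuclear protein-coding genes. TPM give no depth, so that a gene not called was not shown to be equal.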

Other observations

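Further genes among the 432 calls are given here as values; they were picked after their values were seen. Among these calls were the Hedgehog pathway genes BOC, GLI2, GLI3 and SMO, lower in all 4 survivor libraries than in both Control libraries, as was every called fall. No list was drawn up for this pathway or for the gene groups that follow, so that uncalled members are not counted. BOC, a coreceptor of Hedgehog ligands, was at 42.1, 42.8, 43.1 and 46.3 TPM in survivors against 85.1 and 102 TPM in Control cells (-1.08 ± 0.16, adjusted p = 0.0137 in limma). GLI3, a transcription factor of the pathway, was at 9.12, 9.92, 9.87 and 7.98 TPM against 19.1 and 19.5 TPM (-0.99 ± 0.13, adjusted p = 0.00831), and GLI2, a related factor, at 0.872 to 1.7 TPM against 3.76 and 4.91 TPM (-1.23 ± 0.21). SMO, the signal transducer of the pathway, was at 4.83 to 5.62 TPM against 9.65 and 10.4 TPM (-0.82 ± 0.13). Also lower were 5 cell-adhesion and guidance genes best known from neurons: NCAM2 at 1.57 to 3.55 TPM against 8.67 and 8 TPM, CNTN1 at 1.13 to 1.89 TPM against 4.26 and 6.92 TPM, CADM2 at 0.4 to 0.883 TPM against 1.75 and 3.81 TPM, DPYSL3 at 1.88 to 2.11 TPM against 5.45 and 6.59 TPM, and SEMA3D at 1.17 to 1.68 TPM against 3.69 and 4.33 TPM. Receptors of hormones moved in both directions, with GHR, of growth hormone, at 0.19 to 0.586 TPM against 1.63 and 2.15 TPM, PRLR, of prolactin, at 1.04 to 1.41 TPM against 2.82 and 3.09 TPM, and TSHR, of thyrotropin, higher at 9.72 to 14.3 TPM against 6.34 and 5.47 TPM. AKT2, a kinase of the PI3K pathway, was at 495, 512, 356 and 339 TPM against 832 and 946 TPM (-1.08 ± 0.16, adjusted p = 0.0137).

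Called rises included the host genes ZFAS1, SNHG5, SNHG6 and SNHG8 of small nucleolar RNAs. Like ribosomal protein genes, these belong to the terminal oligopyrimidine class. Other host genes were not counted, and no list of the whole class was drawn up. ZFAS1 was at 158, 179, 233 and 191 TPM in survivors against 96.6 and 84.6 TPM in Control cells (1.05 ± 0.16), SNHG5 at 315 to 389 TPM against 218 and 211 TPM (0.77 ± 0.12), SNHG6 at 152 to 204 TPM against 117 and 113 TPM, and SNHG8 at 299 to 366 TPM against 220 and 203 TPM. TPT1, a translationally controlled protein of the same class, was at 2014 to 2578 TPM against 1373 and 1337 TPM (0.69 ± 0.11). RGCC, a regulator of the cell cycle induced by complement, was at 153, 156, 195 and 171 TPM against 74.9 and 74.5 TPM (1.16 ± 0.12, adjusted p = 0.00203). NOS1, neuronal nitric oxide synthase, was at 14.6 to 17.4 TPM against 6.53 and 6.32 TPM, EPAS1, which encodes HIF-2 alpha, at 23.3 to 32.8 TPM against 15 and 11.7 TPM, CASP1, the inflammasome protease, at 4.81 to 10.7 TPM against 2.14 and 2.12 TPM, LGALS1, galectin 1, at 211 to 346 TPM against 146 and 135 TPM, and TMEM100 lower at 58.1 to 67.2 TPM against 128 and 145 TPM. Of these 24 genes none was called without Control replicate 1 (adjusted p 0.055 to 0.214) or without Control replicate 2 (0.0723 to 0.466), and 19 were without Treated replicate 1. Without 1 library in turn, the CADM2 difference ran between -1.54 and -0.74 and the CNTN1 difference between -1.62 and -1.03.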
